A study of Mus musculus with 10 samples.

Results

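The genes described here are those whose printed name on a mouse cDNA membrane holds the word kinase and does not place them among receptors, ligands or inhibitors. Of the 597 named genes on the membrane, 63 held the word, 41 remained once names with receptor, ligand or inhibitor were set aside, and 8 more were left out by name (Blk, Lck, Fyn, Fes, Prkca, Mapk3, Map2k1 and Akt1), which left 33. Among them 28 encode a protein named as a kinase itself and 2 a regulatory subunit of one, Prkar1b and Pik3r1. The other 3 took the word from elsewhere in their names: Cttn and Bcar1 are substrates of tyrosine kinases, and Plau is urokinase, a protease. A rule on the word passes over kinases printed without it, such as A-Raf, B-raf, abl, c-Src and Atm. It also took in Ryk, a receptor-type protein whose printed name lacks the word receptor.

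Protein kinases move phosphate from ATP to other proteins and so carry signals from the cell surface to the nucleus. In lymphocytes, tyrosine kinases such as Syk and Jak3 act just beneath antigen and cytokine receptors, protein kinase C and the phosphatidylinositol 3-kinase relay those signals, and MAP kinase cascades carry them on in tiers. Cyclin-dependent kinases drive the steps of cell division and of transcription once they bind a cyclin.

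Splenocytes, the unsorted cells of the spleen, were taken from FVB mice aged 6 weeks, and their total RNA, turned into cDNA carrying 32P, was hybridised to 1 membrane per sample. There were 7 arrays of CD22DE12 transgenic animals and 3 of wild-type animals on the same FVB background. CD22 is a B cell co-receptor that restrains the B cell receptor; the sources used here do not state the promoter of the transgene, the cells that express it or the sex of the mice. Nothing states that each array came from a mouse of its own, so p-values speak to the spread between these samples alone, and that spread may be technical.

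On each array 463 to 550 of the 597 genes stood above background, and 25 to 33 of the 33 kinase-named genes did. A gene was taken as above background when at least 1 of its 2 spots carried the code 0 rather than 2. The sources used here do not state what these codes mean. Clock times in the file headers, split at their largest gap, set the images of transgenic replicates 6 and 7 apart from the rest. They are called a second sitting here, which no label names, and hold no wild-type array. The median kinase-named gene lay 4.83 and 3.74 grey levels above local background on them, against 12.1 to 19.5 on the other 8 arrays. Defining markers of spleen cells were present by the same codes: all 5 B cell markers, 4 of 5 T cell markers and all 6 myeloid markers stood above background on every array. At 1 of the B cell markers local background exceeded 100 grey levels on all 10 arrays, so its reading is less certain. Cd22 itself read -0.24 on the log2 scale, transgenic minus wild type (unadjusted p = 0.0183, adjusted p = 0.562 by limma), and does not check the genotypes, since the species of the transgene is not stated.

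By the spot codes, most of these genes gave a signal in spleen. Of the 33, 22 stood above background on all 10 arrays, or 66.7%, beside 357 of all 597 genes, or 59.8%. The code is a lenient measure. Unnamed spots averaged 18.8 grey levels above local background in the transgenic and 22.3 in the wild-type group. The median kinase-named gene lay at 12.4 and 14.1. Fewer of the 33 exceeded a limit set from the unnamed spots, as given below. Every one of the 33 was above background on at least 1 array of each group, though some on few arrays and with only 1 of their 2 spots. The genes with both spots above background on every array were Csk, Jak3, Syk, Map2k3, Map2k4, Mapk14, Rps6ka1, Wee1, Csnk2a1, Prkcd, Nme2 and Pik3r1. The one gene above background on fewer than 5 arrays was Ptk6, a Src-related kinase known from intestinal and other epithelia, which was seen on 3 of 7 transgenic and 1 of 3 wild-type arrays. Map2k6, an activator of p38, was seen on 3 of 7 transgenic and 2 of 3 wild-type arrays.

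**Figure D1:**
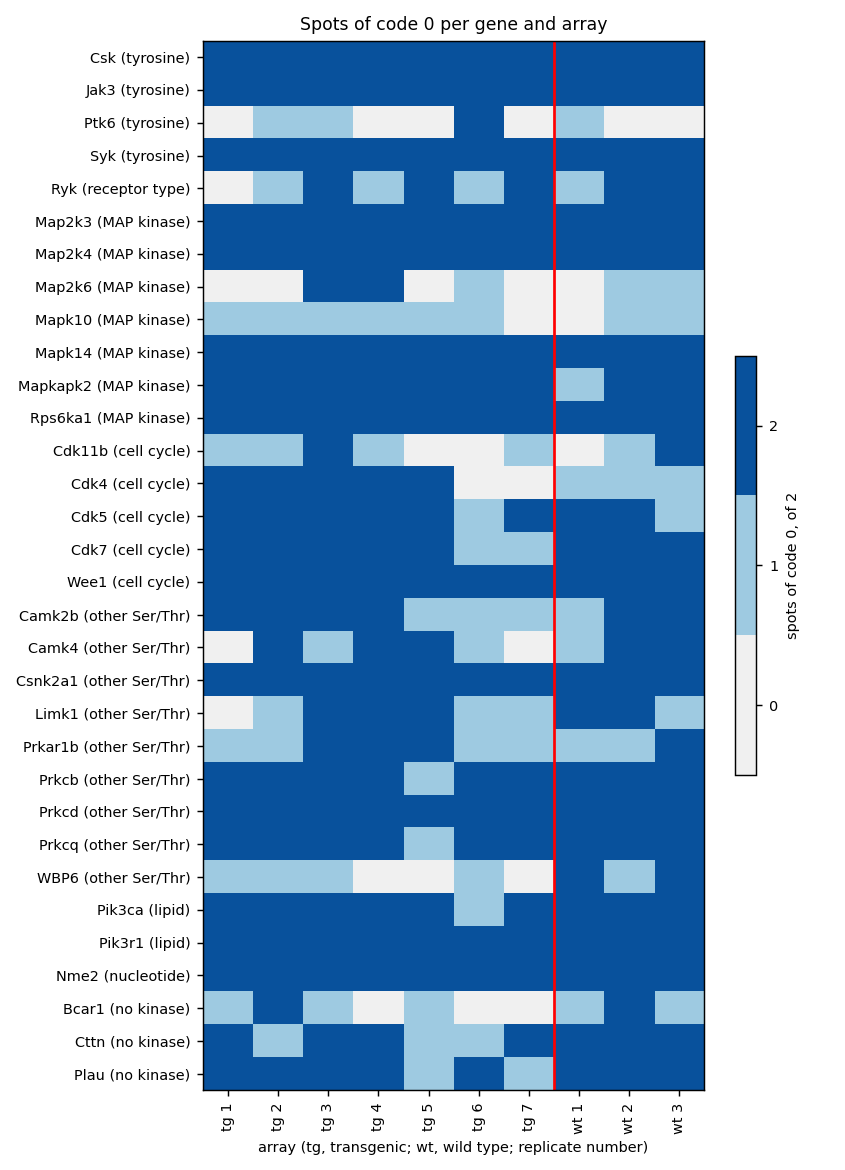
Number of spots with the code 0, from 0 to 2, for kinase-named genes (rows, with their class) on each array (columns, transgenic arrays left of the red line and wild-type arrays right of it). Ptk6 is blank on 6 arrays and Map2k6 on 5, and 12 genes are dark on all 10.

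Readings without a signal came from both sittings. On the 2 arrays of the second sitting 11 of 66 readings were not above background, on the other 5 transgenic arrays 13 of 165, and on the wild-type arrays 5 of 99. Cdk4, the partner of D cyclins, was not above background on transgenic replicates 6 and 7 and was on the other 8 arrays. On each wild-type array only 1 of its 2 spots carried the code 0. Its signal on wild-type replicate 3, 1.19 grey levels, was below the 2.78 on transgenic replicate 6. Bcar1 and WBP6, a kinase of splicing factors, were above background on 4 of 7 transgenic arrays each and on all 3 wild-type arrays. Bcar1 lacked a signal on transgenic replicates 4, 6 and 7, and WBP6 on replicates 4, 5 and 7, so first-sitting arrays were among them. Levels of different genes are not set against each other here, because each spotted cDNA binds label with its own efficiency.

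The question was which kinase genes had another level in transgenic than in wild-type splenocytes, and none passed. Differences are in log2 units, transgenic minus wild type, with 50 grey levels added to each signal, which makes changes look smaller than they are and most so in dim genes. limma with Benjamini-Hochberg adjustment over all 597 genes called 0 of the 33 kinase-named genes, beside 0% of all genes, and the smallest adjusted p among the 33 was 0.570. At an unadjusted p under 0.05 stood 1 of the 33, Csnk2a1, against a background of 7.20% (43 of 597). No gene of the 33 was there on the higher side (2.35% of all genes) and 1 on the lower (4.86%). An exact permutation test, two-sided and run over all 120 ways to split the arrays, also put 1 gene, Csnk2a1, under 0.05; with 7 against 3 arrays its smallest possible p is 0.00833.

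The 33 split evenly in direction, with 17 higher and 16 lower in the transgenic group, beside 309 higher and 288 lower among all genes. Their median difference was 0.0004 and that of all genes 0.0019. Differences ran from -0.15 for Csnk2a1 to 0.10 for Pik3ca, and the quartiles lay at -0.04 and 0.04, as they did for all genes. The groups overlapped in every one of the 33, where 1.68% of all genes (10 of 597) had groups that did not. A 95% interval, before adjustment over genes, extended 0.12 above and below the estimate for the median kinase-named gene. Smaller differences on this scale could therefore not be seen in a typical gene. Larger ones could also go uncalled after adjustment: Csnk2a1, at -0.15, had an adjusted p of 0.570 by limma.

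**Figure D2:**
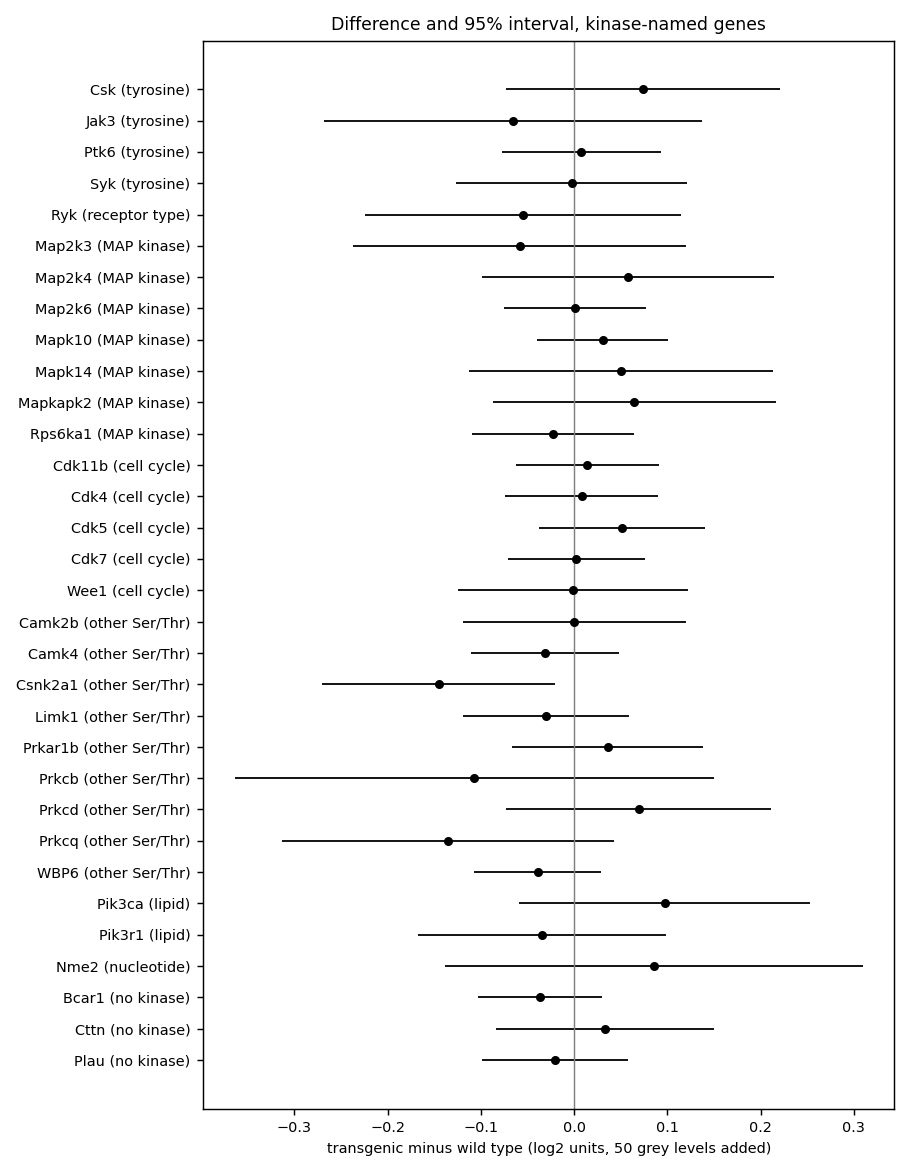
Difference in log2 signal, transgenic minus wild type, with its 95% interval from limma, for kinase-named genes grouped by class. Only the interval of Csnk2a1 (-0.27 to -0.02) leaves out 0, before any adjustment over genes.

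Non-receptor tyrosine kinases numbered 5, among them Csk, Jak3, Ptk6 and Syk. Of the 5, 2 had a higher and 3 a lower transgenic mean; the median difference was -0.003, and 0 passed. Csk, which phosphorylates Src family kinases on their inhibitory tail, read 6.51 to 6.74 (median 6.56) on the 7 transgenic arrays, against 6.42, 6.48 and 6.69 on the wild-type arrays. Of the transgenic arrays 6 of 7 lay above the wild-type mean, but the ranges overlapped, and the difference of 0.07 had a standard error of 0.066 (limma adjusted p = 0.972). It read 0.16 without wild-type replicate 3 (unadjusted p = 0.0343) and 0.02 without wild-type replicate 1.

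Ptk6 read 5.70 to 5.88 (median 5.73) on transgenic arrays, against 5.77, 5.72 and 5.75 on wild-type arrays. Its difference of 0.01 lies at the limit of what the membrane registers, since most arrays gave no signal above background.

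Syk and Jak3 were bright on every array. Syk, which couples the B cell receptor to its signalling cascade and is printed on this membrane together with the name ack, another kinase, averaged 7.23 ± 0.09 on the 7 transgenic arrays and 7.23 ± 0.05 on the 3 wild-type arrays (SD). The 95% interval of its difference ran from -0.13 to 0.12. Jak3, which signals from cytokine receptors that share the common gamma chain, averaged 6.96 ± 0.17 on the 7 transgenic arrays and 7.03 ± 0.01 on the 3 wild-type arrays (SD). The 3 wild-type arrays lay between 7.02 and 7.04, while transgenic arrays reached from 6.65 on replicate 3 to 7.15 on replicate 7, and 4 of 7 lay below the wild-type mean. The difference was -0.07 with an interval of -0.27 to 0.14, and -0.01 without transgenic replicate 3.

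**Figure D3:**
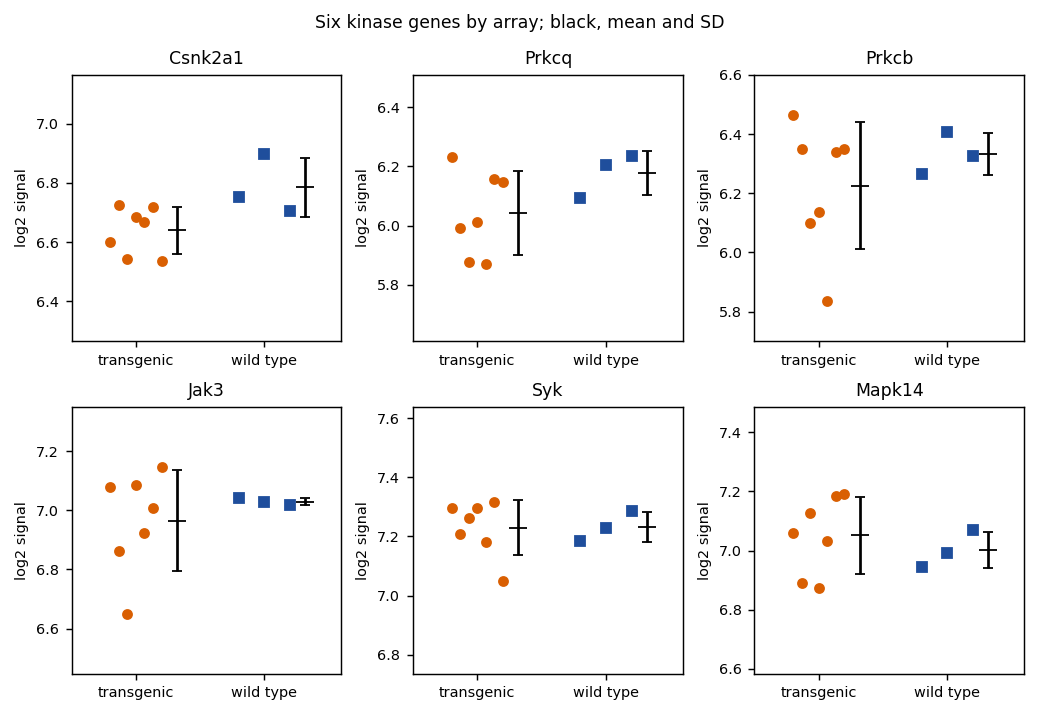
Normalized log2 signal of 6 kinase genes on the transgenic arrays (orange circles) and the wild-type arrays (blue squares), with mean and SD in black; every panel spans 0.9 log2 units. The SD between transgenic arrays exceeds that between wild-type arrays in every panel except that of Csnk2a1, as does the median SD over all genes (0.08 against 0.06). The transgenic arrays of Csnk2a1 all lie below the wild-type mean.

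Ryk, a receptor-type protein of Wnt signalling that is printed as a tyrosine kinase, was the single gene of its class. It read 5.71 to 6.13 (median 5.78) on transgenic arrays, against 5.89, 5.92 and 5.90 on wild-type arrays. The highest transgenic array, replicate 5, stood above every wild-type array, and 5 of the 7 lay below the wild-type mean. The difference was -0.05 (adjusted p = 0.972 by limma). Without transgenic replicate 5 it was -0.10, with an unadjusted limma p of 0.0427.

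The MAP kinase cascade gave 7 genes, of which 5 had a higher and 2 a lower transgenic mean, with a median difference of 0.03 and 0 past the threshold. Activators at the second tier were Map2k3 and Map2k6, which phosphorylate p38, and Map2k4, which acts on both JNK and p38. Map2k4 averaged 6.11 ± 0.10 on the 7 transgenic arrays and 6.05 ± 0.14 on the 3 wild-type arrays (SD). Map2k3 averaged 6.12 ± 0.08 on the 7 transgenic arrays and 6.17 ± 0.21 on the 3 wild-type arrays (SD), and its wild-type arrays, at 6.35, 6.23 and 5.94, enclosed all the transgenic ones. Map2k6 averaged 5.77 in both groups.

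The final tier was represented by p38 alpha (Mapk14) and by JNK3 (Mapk10), a kinase known mainly from brain. Mapk14 read 6.88 to 7.19 (median 7.06) on transgenic arrays, against 6.94, 6.99 and 7.07 on wild-type arrays. Its estimated difference was 0.05, with an interval of -0.11 to 0.21 and overlapping groups. The sign turned within the first sitting (-0.003), with the sitting as a block (-0.005) and without background correction (-0.01). Mapk10 read 5.75 to 5.87 (median 5.77) on transgenic arrays, against 5.76, 5.77 and 5.76 on wild-type arrays. Its signal was near background, with 6 of 7 transgenic and 2 of 3 wild-type arrays above it, and the difference of 0.03 did not pass (adjusted p = 0.972 by limma).

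Kinases below the cascade were Mapkapk2, a target of p38 that stabilises cytokine mRNAs, and Rps6ka1, a target of ERK. Mapkapk2 read 5.90 to 6.22 (median 5.98) on transgenic arrays, against 5.88, 6.03 and 5.98 on wild-type arrays. Transgenic replicates 4 and 7 stood above the others, and the difference was 0.06 with a standard error of 0.069. Without background correction it was -0.09. Rps6ka1 averaged 5.91 ± 0.06 on the 7 transgenic arrays and 5.93 ± 0.03 on the 3 wild-type arrays (SD).

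Cell cycle kinases lay close to 0 on the scale used here, which makes changes in dim genes look smaller. The 5 genes differed by -0.001 to 0.05, 4 with a higher and 1 with a lower transgenic mean, and 0 past the threshold. Cdk5, a kinase best known from neurons, read 5.90 to 6.04 (median 5.93) on transgenic arrays, against 5.92, 5.96 and 5.84 on wild-type arrays, a difference of 0.05 (adjusted p = 0.936 by limma). Cdk11b, printed as the p58 kinase related to cdc2, read 5.69 to 5.82 (median 5.80) on transgenic arrays, against 5.74, 5.75 and 5.81 on wild-type arrays. The transgenic range enclosed the wild-type one. Cdk4 averaged 5.81 ± 0.05 on the 7 transgenic arrays and 5.80 ± 0.06 on the 3 wild-type arrays (SD). Cdk7, which activates other cyclin-dependent kinases and sits in the transcription factor TFIIH, averaged 5.87 in both groups, and Wee1, which holds back entry into mitosis, 5.97 in both.

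Cyclins and inhibitors of cyclin-dependent kinases were taken as listed genes, not only those that bind the kinases above. Of 12 cyclins 9 had a higher and 3 a lower transgenic mean; the median difference was 0.02, and 0 passed (smallest adjusted p 0.824 by limma). The cyclins of smallest p were Ccna1, with a log2 difference of 0.28, and Ccnb1, a cyclin of mitosis, with a log2 difference of 0.10. Of 5 inhibitors of cyclin-dependent kinases 3 were higher and 2 lower, with a median of 0.006, and 0 passed. Cdkn2d had a log2 difference of 0.05 and Cdkn1c of -0.02. None of these cyclins and inhibitors was under an unadjusted p of 0.05, beside 7.20% of all genes. Of 3 erythroid markers 2 were higher in transgenic splenocytes and 0 passed, with a mean level of 6.07 to 6.81 on transgenic and 6.20 to 6.44 on wild-type arrays; their part in the cyclin levels was not tested.

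Other serine and threonine kinases formed the largest class, with 9 genes, of which 3 had a higher and 6 a lower transgenic mean, and a median difference of -0.03. Csnk2a1, the catalytic alpha subunit of casein kinase II, a constitutively active kinase with very many substrates, had the smallest p of all 33 genes. It read 6.60, 6.73, 6.54, 6.69, 6.67, 6.72 and 6.53 on transgenic replicates 1 to 7, against 6.75, 6.90 and 6.71 on the wild-type arrays. Each of the 7 transgenic values was under the wild-type mean, but replicates 2 and 6 exceeded wild-type replicate 3, so the groups overlapped.

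The mean of Csnk2a1 was 6.64 ± 0.08 on the 7 transgenic arrays and 6.79 ± 0.10 on the 3 wild-type arrays (SD), which makes a difference of -0.15 (standard error 0.056). By limma its unadjusted p was 0.0262 and its adjusted p 0.570, while 4 of the 120 splits were at least as large in the exact permutation test (p = 0.0333, two-sided). Before normalization the mean signal was not lower: on the first-sitting arrays it lay 63.4 ± 7.69 grey levels above background in the transgenic group (SD, n = 5) and 61.4 ± 18.1 in the wild-type group (SD, n = 3). With arrays only centred on their medians the difference was -0.06 (unadjusted p = 0.506), and without wild-type replicate 2 it was -0.09 (unadjusted p = 0.162). Within the first sitting, normalized anew, it was -0.14 (unadjusted p = 0.0394), and with the sitting as a block also -0.14. The printed name is a related sequence of the gene, so signal from near-identical copies could not be told apart.

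**Figure D4:**
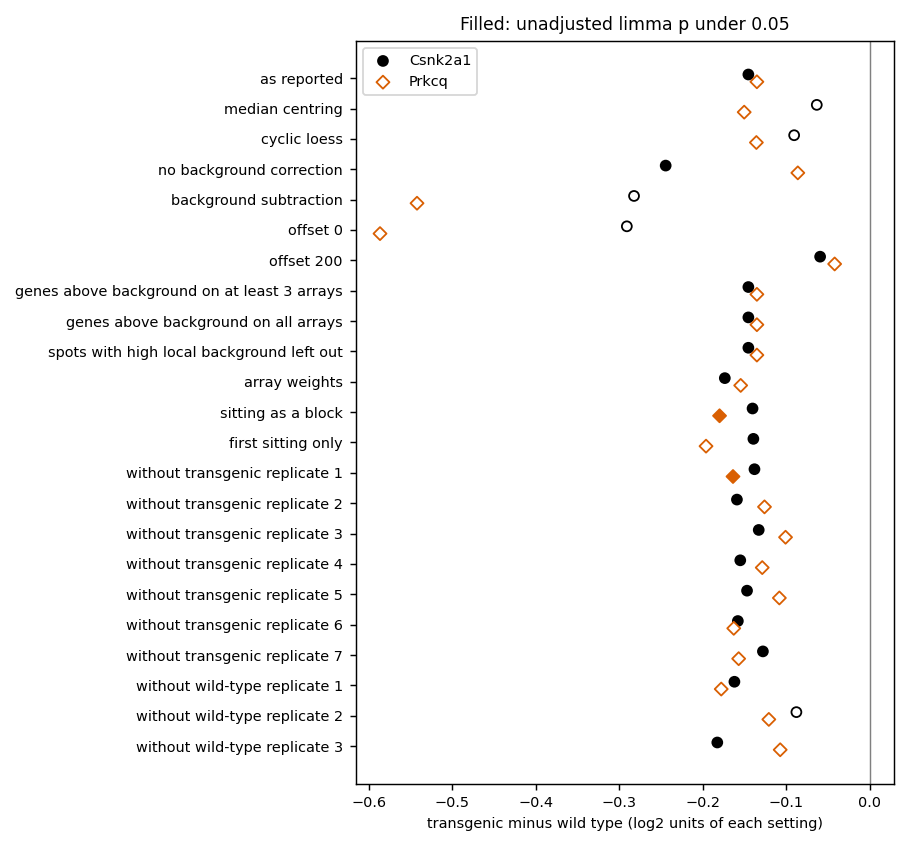
Difference of Csnk2a1 (circles) and Prkcq (diamonds), transgenic minus wild type in log2 units, under each setting of the processing and with each array left out; filled symbols mark an unadjusted limma p under 0.05. All values lie below 0, and the symbol of Csnk2a1 is open in 5 of the 23 settings.

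Protein kinase C was present in its beta, delta and theta forms. Prkcq, the theta form, which works at the contact of T cells with antigen-presenting cells, read 6.23, 5.99, 5.88, 6.01, 5.87, 6.16 and 6.15 on transgenic replicates 1 to 7, against 6.09, 6.20 and 6.23 on the wild-type arrays. Of the transgenic arrays 6 of 7 lay below the wild-type mean. The difference was -0.14 with a standard error of 0.081 and did not pass (adjusted p = 0.819 by limma, two-sided exact permutation p = 0.167). Within the first sitting it was -0.20 (unadjusted p = 0.0544), and without transgenic replicate 1 it was -0.16 (unadjusted p = 0.0472).

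T cell markers stood beside it. Of 5 markers 4 were lower in the transgenic group, 0 passed, and their mean level ran from 6.06 to 6.16 on transgenic arrays, against 6.16 to 6.21 on wild-type arrays. Their part in the level of Prkcq was not tested, and in RNA of mixed cells a smaller number of cells of a type and less RNA per cell cannot be told apart.

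Prkcb, the beta form, which relays B cell receptor signals to NF-kB, had the widest spread of the 33 genes between transgenic arrays, with an SD of 0.21. It read 5.84 on transgenic replicate 5, 6.10 and 6.14 on replicates 3 and 4, and 6.34 to 6.47 on the other 4, against 6.27, 6.41 and 6.33 on wild-type arrays. The low values were all from the first sitting. The difference was -0.11 with a standard error of 0.116, and -0.04 without transgenic replicate 5. All 5 B cell markers were lower in the transgenic group, of which 3 had an unadjusted p under 0.05, where 4.86% of all genes lay on the lower side, and 0 passed. Cd22, whose name the transgene carries, was 1 of these 3, and its difference of -0.24 was the largest of the 5. The mean level of the 5 markers ran from 6.37 to 6.59 on transgenic arrays, lowest on replicate 3, against 6.51 to 6.74 on wild-type arrays. This mean includes Cd22 and the marker with high local background. The part of the B cell markers in the level of Prkcb was not tested. Prkcd, the delta form, averaged 6.94 ± 0.10 on the 7 transgenic arrays and 6.87 ± 0.11 on the 3 wild-type arrays (SD).

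The calcium and calmodulin kinases on the membrane were Camk4 and Camk2b, both known mainly from neurons and, for Camk4, from T cells. Camk4 averaged 5.82 ± 0.05 on the 7 transgenic arrays and 5.85 ± 0.04 on the 3 wild-type arrays (SD), and Camk2b averaged 5.91 in both groups. Prkar1b, a regulatory subunit of the cAMP-dependent kinase, averaged 5.82 ± 0.07 on the 7 transgenic arrays and 5.78 ± 0.04 on the 3 wild-type arrays (SD). These genes were dim, with at most 23.3 grey levels above background on any array.

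Limk1, which phosphorylates cofilin and so slows the turnover of actin filaments, averaged 5.82 ± 0.06 on the 7 transgenic arrays and 5.85 ± 0.04 on the 3 wild-type arrays (SD). Without background correction its difference of -0.03 became 0.21. WBP6, whose printed name also gives SRPK1 and which the RefSeq table lists among the synonyms of Srpk2, averaged 5.79 ± 0.02 on the 7 transgenic arrays and 5.82 ± 0.06 on the 3 wild-type arrays (SD). Which of these genes it is cannot be settled from the name, and the difference of -0.04 did not pass (adjusted p = 0.945 by limma).

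**Figure D5:**
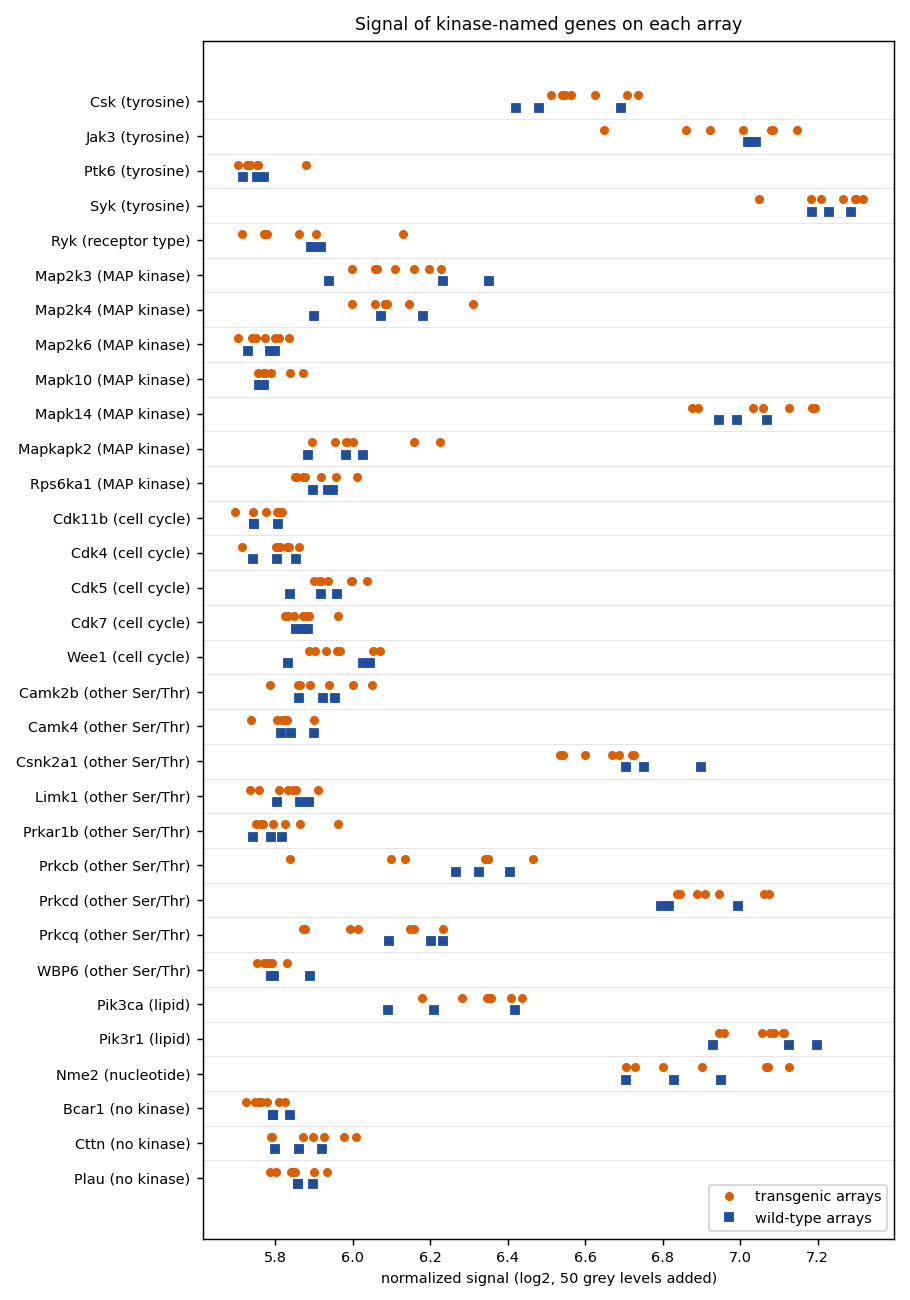
Normalized log2 signal of kinase-named genes on every array, with transgenic arrays (orange circles) drawn above wild-type arrays (blue squares) in each row. In every row the ranges of the groups overlap.

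Both subunits of the class I phosphatidylinositol 3-kinase were above background on all arrays. The catalytic subunit, printed as p110 and listed under Pik3ca in the RefSeq table, read 6.18 to 6.44 (median 6.35) on transgenic arrays, against 6.09, 6.21 and 6.42 on wild-type arrays. Its difference of 0.10 was the highest of the 33 genes but had a standard error of 0.071 and an interval of -0.06 to 0.25. It became 0.19 without wild-type replicate 3 (unadjusted p = 0.0164, adjusted p = 0.543) and 0.02 without wild-type replicate 1. Pik3r1, the regulatory p85 subunit, which holds and stabilises the catalytic one, read 6.94 to 7.11 (median 7.08) on transgenic arrays, against 7.12, 6.93 and 7.20 on wild-type arrays. Its difference was -0.03 (adjusted p = 0.972 by limma), so the subunits differed in sign, each within the spread between arrays.

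Nme2, a nucleoside diphosphate kinase that makes nucleoside triphosphates from ATP, was the single metabolic kinase. It read 6.70 to 7.13 (median 6.90) on transgenic arrays, against 6.83, 6.70 and 6.95 on wild-type arrays. Transgenic replicates 1, 3 and 6 lay above 7 and the others within the wild-type range or close to it, and the difference was 0.09 with a standard error of 0.101. Leaving out 1 array moved it between 0.02, without wild-type replicate 2, and 0.14, without wild-type replicate 3.

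On the scale used here the differences of the 3 genes that encode no kinase lay within the range of the kinases, and 0 passed. Bcar1, a docking protein of focal adhesions, read 5.72 to 5.82 (median 5.76) on transgenic arrays, against 5.84, 5.79 and 5.79 on wild-type arrays, a difference of -0.04 (adjusted p = 0.950 by limma). Cttn, an actin-binding protein, read 5.79 to 6.01 (median 5.90) on transgenic arrays, against 5.92, 5.80 and 5.86 on wild-type arrays, a difference of 0.03. Plau averaged 5.85 ± 0.05 on the 7 transgenic arrays and 5.87 ± 0.02 on the 3 wild-type arrays (SD).

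Genes that work with the kinases gave no call either. Among 9 adaptors and Ras proteins 3 had a higher and 6 a lower transgenic mean, and the median difference was -0.03; Cbl, a ubiquitin ligase that ends tyrosine kinase signals, had a log2 difference of -0.11 and Crk, an adaptor, of -0.13. Among 4 STAT factors, the targets of Janus kinases, 3 were higher and 1 lower, with a log2 difference of 0.04 for Stat6. Among 4 protein phosphatases 2 were higher and 2 lower, with log2 differences of 0.05 for Ptpn11 and 0.03 for Cdc25b. In these 3 lists 0 genes were under an unadjusted limma p of 0.05, beside 7.20% of all genes (43 of 597).

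Spread between arrays was like that of other genes. The median SD of a kinase-named gene was 0.08 between transgenic arrays, as for all 597 genes, and 0.06 between wild-type arrays, again as for all genes. After Prkcb the widest among transgenic arrays were Nme2 and Jak3, at 0.18 and 0.17, and among wild-type arrays Map2k3 and Pik3ca, at 0.21 and 0.17. Across the 33 genes, which are not independent replicates, pairs of transgenic arrays correlated at 0.934 to 0.981 (Pearson), pairs of wild-type arrays at 0.958 to 0.980, and mixed pairs at 0.943 to 0.982. Among the 33, local background exceeded 100 grey levels at Pik3r1 and Jak3, on 1 array each.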

How the data were processed

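Per the file headers, the deposited spot values are intensity: the mean grey level within each spot and, separately, of the background ring about it, found by automatic segmentation of an inverted image. The authors' processed table was read as log2 because of its range. The sources used here do not state its scale, centring or floor, nor the exposure or the meaning of the spot codes. Entries of that table could not be named, so it served for a count over all genes.

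Background was corrected by normexp with an offset of 50, fitted on all spots. Gene spots were quantile normalized, and the 2 spots of a gene averaged. limma 3.58.1 in R 4.3.3 compared 7 transgenic with 3 wild-type arrays over 597 genes (two-sided, Benjamini-Hochberg, threshold 0.05), without a filter. Steps were tested on simulated data, in which only genes above background on every array were changed, by 2-fold or more, without a sitting effect. That test does not show how small differences or dim genes would fare. The array number limits precision. Figures used Python 3.11.15, pandas 2.3.3 and matplotlib 3.10.9.

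The members, lists and tests were chosen with earlier results of these data known. Printed names were matched to symbols by hand; WBP6 kept its printed name. RefSeq names are of the assembly GRCm38.p6, and no coordinates were used. Low, median and high values are given for the genes of unadjusted p under 0.05, the 2 of smallest p in each class and those above background on fewer than 5 arrays; others were named so that nearly every gene is described. Genes named from the lists of other genes are among the 2 of smallest p in their list. Sittings were inferred from the clock times in the headers, without the day, by a split at the largest gap. This split put transgenic replicates 6 and 7 in the second sitting. Probe and protein sequences were not used here. Some items are counted but not reported here by name, in the text or the plots.

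Alternatives were median centring, cyclic loess, no or plain background correction, offsets of 0 and 200, filters on dim genes, spots with local background over 100 left out, array weights, the sitting as a block or the first sitting alone, other definitions of detection, and each array left out.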

Additional observations from a re-analysis of the deposited data

Results flagged for a closer look

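Among the 33 genes, 2 had a transgenic array that stood apart from the remaining ones; chance marks about 1 gene in 20, or 1.65 of the 33. The value of Cdk4 was 5.71 on transgenic replicate 7, while the remaining 6 transgenic arrays gave 5.80 to 5.86; Cdk4 was not above background on that array. The value of Ptk6 was 5.88 on transgenic replicate 6, with 5.70 to 5.75 on the remaining ones, and that array was the only one with both of its spots above background. Both arrays are of the second sitting, whose part in these values was not tested. Groups of 3, such as the wild-type one, are too small for this search. Unnamed spots, 126 per array, averaged 18.8 grey levels above background in the transgenic and 22.3 in the wild-type group, with p = 0.575 by an exact permutation test (two-sided). These are values before normalization, and the transgenic ones include the 2 arrays of the second sitting, which holds no wild-type array. Group and sitting are therefore mixed in this comparison.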

How the results depend on the processing

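No paired analysis was possible because the replicate numbers of the groups come from separate series and pair no arrays. Under all alternatives run on the spot values limma called 0 genes of all and 0 of the 33, and in the authors' processed values, where the 33 could not be picked out, it called 0 genes of all. The median difference of the 33 lay between -0.013 and 0.011. The count at an unadjusted p under 0.05, 1 as reported, was 0 with median centring, cyclic loess, background subtraction or an offset of 0, and 2 without background correction (Cdk11b and Csnk2a1) or with the sitting as a block (Csnk2a1 and Prkcq). Leaving out 1 array it ran from 0, without wild-type replicate 2, to 4, without wild-type replicate 3 (Csk, Csnk2a1, Map2k3 and Pik3ca), and was 2 without transgenic replicate 1 or 5. The genes above background on all arrays, 22 as reported, were 12 when both spots had to have code 0, 8 when the signal had to exceed 2 SD of the unnamed spots, and 24 in the first sitting. The cause of these shifts was not tested.

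Signs turned in genes with differences near 0 and in some larger ones, none of which passed. Without background correction Map2k4 turned to -0.0058, Prkcd to -0.0092, Mapk14 to -0.0105, Map2k6 to -0.0228, Mapkapk2 to -0.0907, WBP6 to 0.0159, Camk4 to 0.0521, Bcar1 to 0.0721, Rps6ka1 to 0.0984 and Limk1 to 0.2071. With background subtraction Cdk7 turned to -0.0218, Camk2b to -0.0352 and Wee1 to 0.0035, and with an offset of 0 they turned to -0.0166, -0.021 and 0.0031. With an offset of 200 Map2k6 turned to -0.0001. With median centring Syk turned to 0.0232, and with cyclic loess to 0.0107, beside Cdk7 at -0.0042, Ptk6 at -0.0055 and Wee1 at 0.0018. In the first sitting alone Mapk14 turned to -0.003, Cdk7 to -0.0069, Ptk6 to -0.0197, Wee1 to 0.0077 and Syk to 0.0153, and with the sitting as a block to -0.005, -0.006, -0.0172, 0.0075 and 0.0165. With array weights Map2k6 turned to -0.0065, Pik3r1 to 0.0132 and Syk to 0.0007. Leaving out 1 array, the signs of 10 genes turned in at least 1 case. Camk2b ran from -0.0242 to 0.0212, Cdk4 from -0.0208 to 0.035, Cdk7 from -0.0134 to 0.0107, Map2k3 from -0.1788 to 0.0295 and Map2k4 from -0.0178 to 0.1246. Map2k6 ran from -0.0203 to 0.0142, Pik3r1 from -0.1111 to 0.0225, Ptk6 from -0.0143 to 0.0197, Syk from -0.028 to 0.0251 and Wee1 from -0.0696 to 0.0366. Signal near background limits Ptk6, Map2k6, Mapk10, Cdk11b, WBP6 and Bcar1 most.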
